A study of Mus musculus with 9 samples.

Results

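The acute phase of cisplatin kidney injury was read from bulk RNA sequencing of whole mouse kidney, as the difference between 3 libraries taken 3 days after cisplatin and 3 sham libraries. All animals were C57BL/6 mice. The cisplatin animals had received 1 intraperitoneal injection of 20 mg/kg, and the sham animals saline by the same route. A further group of 3, taken 7 days after the same dose, entered the expression filter, the scalings and the fit of the spread, but not the difference itself. Sex and age are not given in the labels, and whole kidney mixes every tubule segment with vessels, stroma and blood cells, so fewer cells of a type and less RNA per cell cannot be told apart. These 6 of the 9 libraries were compared across all 13718 of 55385 listed genes that reached 1 FPKM in at least 3 of the 9 libraries. FPKM counts the fragments of a gene relative to its length and to all mapped fragments of that library.

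Cisplatin is a platinum compound that forms adducts with DNA. It enters proximal tubule cells through the organic cation transporter of their basal side, and these cells carry out most of the reabsorption of the kidney with a brush border, dense mitochondria and large amounts of transporter. Injured tubule cells are known to lose polarity and brush border, to spread over the bare basement membrane and to switch on stress and repair genes before they regain their shape. The account below leaves the best-known injury markers aside and follows the rest of the transcriptome: regulators, cell architecture, RNA and protein production, metabolism, transport and secreted factors.

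The defining markers of kidney were present in every sham library. Slc34a1, the phosphate transporter of the proximal tubule, stood at 394, 988 and 1051 FPKM in sham, against 9.83, 37.3 and 45.4 at day 3. Of 14 such markers 12 were called lower at day 3 and none higher. The exceptions were Aqp2, the vasopressin-regulated water channel, at 215, 130 and 55.0 FPKM in sham, against 71.6, 64.9 and 31.0 at day 3, and Nphs1, a protein of the podocyte slit, at 6.15, 5.85 and 5.49 against 2.84, 5.32 and 4.31.

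Some libraries stood apart. Sham 1 and day 3 library 1 were the farthest from the other libraries of their groups, with 629 and 726 genes at least 2-fold off the mean of the others. Day 3 library 2 was the highest of all 9 libraries for 13 of 20 genes typical of liver cells. Alb, which encodes serum albumin, was at 17.3, 118 and 0.46 FPKM in the day 3 libraries and at 3.33 to 5.27 in sham, and the 20 genes together summed to 461 FPKM in day 3 library 2, 308 and 54.3 in the other two day 3 libraries and 148 to 235 in sham. This gene set was added after the values were seen, and its part in the results was not tested. No counts were among the values used here, so the depth of each library is unknown.

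In each day 3 library more genes reached 1 FPKM than in any sham library, and the highest genes took a smaller share of the RNA. Between 11647 and 12327 genes reached 1 FPKM in sham, and between 12934 and 13183 at day 3. The 100 highest nuclear genes took 50.7% to 52.9% of the nuclear FPKM in sham and 39.0% to 48.8% at day 3. In both measures the groups did not overlap, and the exact two-sided permutation p was 0.1, the smallest that 3 libraries against 3 can give. The 10 highest genes took 33.2% to 37.7% in sham and 22.5% to 34.4% at day 3, where the groups overlapped (exact permutation p = 0.2).

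Of the 13718 genes, 8214 (59.9%) differed from sham in the limma fit after Benjamini-Hochberg adjustment, 5389 higher (39.3%) and 2825 lower (20.6%). By at least 2-fold, 2347 were higher (17.1%) and 1284 lower (9.36%). In 7984 (58.2%) the call came with no overlap between the 3 sham and the 3 day 3 libraries. With FPKM as deposited 11 genes rose at least 32-fold and no gene fell that far, though Slc34a1 passed that bound after median-of-ratios scaling (-5.11), and 455 rose and 393 fell at least 4-fold. Fold changes are differences of log2(FPKM + 1), which understates the change of weakly expressed genes.

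The split between higher and lower genes turned on the scaling. FPKM is a share of a library, so the loss of a few very abundant transcripts raises the value of every other gene. The median of all tested genes was 0.25 on the log2 scale with FPKM as deposited and 0.005 after median-of-ratios scaling. With that scaling 3963 genes were higher (28.9%) and 4037 lower (29.4%), with quantile normalization 4104 and 3905, and with a trend on GC content and length removed 3986 and 3752. Of the rises 3272 were called in all 4 fits and of the falls 2743, while 9 rises and no fall were called the other way under a scaling. A log2 change near 0.25 is therefore the level of the typical gene. Below, "after scaling" means after median-of-ratios scaling. The shares of all genes to set beside each list are 39.3% higher and 20.6% lower, and 28.9% and 29.4% after scaling.

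**Figure D1:**
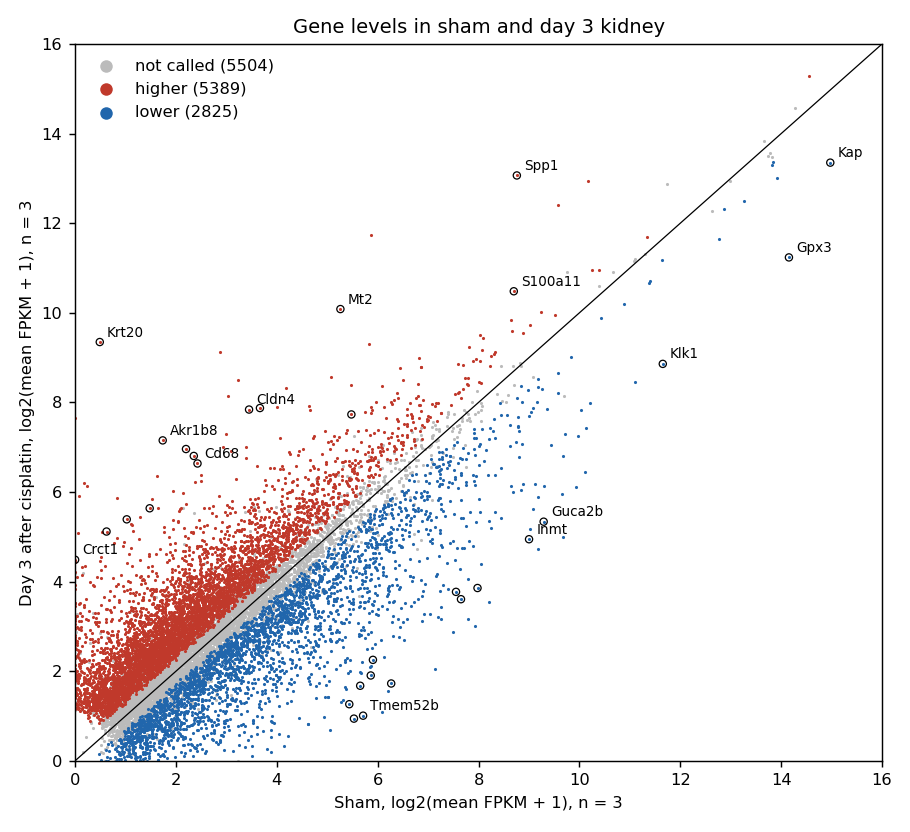
Mean level of each of the 13718 tested genes in sham (horizontal axis) and at day 3 (vertical axis), both as log2(mean FPKM + 1) of 3 libraries. Red points were called higher (5389), blue points lower (2825) and grey points not called (5504). Circles mark the named genes and the line marks equal levels. Kap and Gpx3, the largest losses, lie at the right edge below the line, and Krt20 and Spp1 far above it.

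The largest rises outside the best-known markers came from enzymes, junction and scaffold proteins, and genes of skin-like epithelium. Akr1b8, an aldo-keto reductase that detoxifies aldehydes, stood at 3.36, 2.33 and 1.31 FPKM in sham, against 139, 143 and 142 at day 3 (log2 fold change 5.46 ± 0.33 SE, adjusted p = 7.13e-06). Akap12, a scaffold that anchors protein kinase A, went from 4.94, 3.26 and 2.57 to 126, 103 and 141 FPKM (4.78 ± 0.29). Cldn4, a claudin of tight junctions, went from 17.8, 6.44 and 5.57 to 209, 244 and 231 FPKM (4.56 ± 0.37). In all 3 genes the lowest day 3 library was more than 10 times the highest sham library. On GRCm38, GENCODE places Akr1b8 at chr6:34354119-34368463, Akap12 at chr10:4266380-4359470 and Cldn4 at chr5:134945119-134946934.

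Plaur encodes the receptor of urokinase, which activates the matrix protease plasmin. It was at 2.32, 2.15 and 0.89 FPKM in sham, against 39.2, 53.8 and 53.2 at day 3 (4.19 ± 0.26). Bco1, which cleaves beta-carotene to retinal, was at 0.31, 0.61 and 0.70 against 56.6, 21.7 and 22.8 FPKM (4.36 ± 0.33). The groups did not overlap in either gene, and day 3 library 1 held the highest value of Bco1. In GENCODE on GRCm38 the annotation has Plaur at chr7:24462484-24475968 and Bco1 at chr8:117095854-117133720.

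Crct1 and Sprr1a lie in the gene cluster of chromosome 3 that builds the cornified envelope of skin. Crct1 was listed at 0 in all 3 sham libraries and at 24.2, 23.9 and 16.1 FPKM at day 3. Sprr1a, a small proline-rich protein, was at 20.6, 7.20 and 7.24 in sham, against 241, 265 and 195 at day 3 (4.36 ± 0.60). Cd68, a lysosomal membrane protein used as a macrophage marker, was at 4.33, 5.05 and 3.75 against 95.2, 114 and 86.7 FPKM (4.21 ± 0.24). On GRCm38, GENCODE places Crct1 at chr3:93014205-93015687, Sprr1a at chr3:92483952-92485895 and Cd68 at chr11:69664213-69666153.

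A further 3 rises carry a caution on counting. Hmga1b, which has a near-identical parent gene, Hmga1, was at 5.83, 3.98 and 2.52 FPKM in sham, against 147, 91.5 and 93.5 at day 3 (4.47 ± 0.29), and reads of the pair could be split. Rpl29, a ribosomal protein gene with many processed copies, was at 2.50, 2.52 and 126 FPKM in sham, against 195, 231 and 208 at day 3 (4.19 ± 1.17, adjusted p = 0.0133). Sham 3 stood at more than 40 times the other sham libraries for Rpl29, and the call was lost without sham 2 (adjusted p = 0.0502). In GENCODE on GRCm38 the annotation has Hmga1b at chr11:120762794-120764419, Rpl29 at chr9:106429454-106431568 and Mir22 at chr11:75463716-75463810.

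The third is the microRNA feature Mir22, at 0.11, 0.11 and 2.88 FPKM in sham, against 20.8, 59.2 and 42.8 at day 3 (4.52 ± 0.51, adjusted p = 0.000111). It lies inside the transcript of its host gene Mir22hg, which went from 7.68, 6.58 and 8.63 to 46.6, 54.3 and 46.5 FPKM (2.54 ± 0.14). A library of long RNA reads the precursor and not the mature form, so these values say nothing of the level of the mature microRNA. The mature sequences of this hairpin on chromosome 11, from RefSeq on GRCm38.p6, are shown because the feature was among the largest rises. Capitals mark the seed, bases 2 to 8.
mmu-miR-22-5p: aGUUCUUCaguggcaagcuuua
mmu-miR-22-3p: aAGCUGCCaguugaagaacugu

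The largest falls were in membrane proteins, enzymes and transporters, several of them genes of the proximal tubule. Tmem52b, a membrane protein gene, was at 43.3, 49.7 and 61.1 FPKM in sham, against 1.56, 0.77 and 0.70 at day 3 (-4.71 ± 0.19, adjusted p = 1.85e-06). Tmem174, another membrane protein gene, was at 184, 220 and 196 against 18.7, 6.89 and 8 FPKM (-4.16 ± 0.30). Keg1, whose product resembles glycine acyltransferases, was at 194, 218 and 341 against 16.9, 5.61 and 17.9 FPKM (-4.22 ± 0.39). Day 3 library 1 was the highest of its group for Tmem52b and Tmem174, and the groups did not overlap in any of the 3 genes. On GRCm38, GENCODE places Tmem52b at chr6:129512555-129519227, Tmem174 at chr13:98634978-98637410 and Keg1 at chr19:12695786-12719902.

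Enzymes and transporters made up much of the rest. Ugt2b37, a glucuronosyltransferase, was at 48.9, 75.9 and 103 FPKM in sham, against 0.55, 2.35 and 4.02 at day 3 (-4.64 ± 0.46). Inmt, a methyltransferase of small amines, was at 220, 702 and 612 against 4.99, 36.0 and 48.5 FPKM (-4.36 ± 0.78). Mep1b, the beta subunit of the brush border protease meprin, was at 31.8, 65.7 and 74.0 against 0.43, 2.44 and 5.36 FPKM (-4.12 ± 0.51). Slc7a13, an acidic amino acid transporter of the proximal straight tubule, was at 67.3, 203 and 290 against 2.13, 10.4 and 25.4 FPKM (-4.02 ± 0.75). In these 4 genes the lowest sham value was that of sham 1 and the lowest day 3 value that of day 3 library 1, and the groups did not overlap. In GENCODE on GRCm38 the annotation has Ugt2b37 at chr5:87240493-87254804, Inmt at chr6:55170626-55175043, Mep1b at chr18:21061923-21100199 and Slc7a13 at chr4:19818725-19842218.

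Guca2b encodes uroguanylin, a peptide that raises sodium loss in urine, and was at 725, 626 and 525 FPKM in sham, against 58.9, 30.1 and 29.2 at day 3 (-4.02 ± 0.25, adjusted p = 8.26e-06). Nat8f5, of the Nat8 acetyltransferase family, was at 29.4, 52.9 and 44.6 against 1.15, 1.48 and 1.57 FPKM (-4.14 ± 0.42). Nccrp1 was at 65.5, 53.5 and 16.5 against 0.80, 0.94 and 1.02 FPKM (-4.38 ± 0.44), and the long noncoding RNA AI314278 at 52.7, 46.4 and 48.8 against 0.72, 3.01 and 2.85 FPKM (-4.07 ± 0.29). Hist2h2aa1, a histone H2A gene with a near-identical neighbour, was at 33.1, 64.2 and 79.5 FPKM in sham and listed at 0, 0 and 11.3 at day 3 (-4.61 ± 0.87). Its reads could be split between the copies. On GRCm38, GENCODE places Guca2b at chr4:119656607-119658954, Nat8f5 at chr6:85817218-85820972, Nccrp1 at chr7:28543596-28547254, AI314278 at chr7:89426306-89441928 and Hist2h2aa1 at chr3:96245497-96246082.

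**Figure D2:**
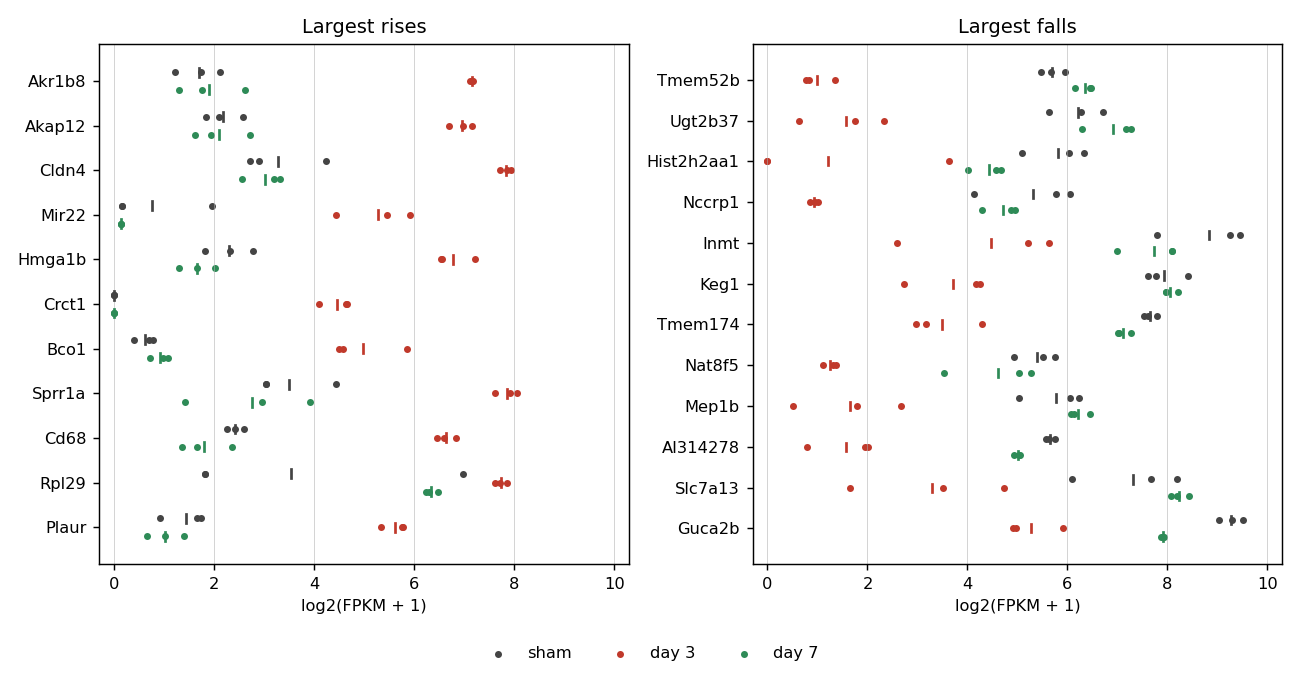
Level of the reported genes among the 12 largest rises (left) and the 12 largest falls (right) in each library, as log2(FPKM + 1), in sham (grey), at day 3 (red) and at day 7 (green). Points are libraries, 3 per group, and short bars are group means. Rpl29 has 1 sham library near the day 3 level, while Crct1 is at 0 in every sham and day 7 library.

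Changes were also ranked by amount of RNA rather than by fold, with genes of mitochondrial DNA left out. Kap, the kidney androgen-regulated protein, was the highest nuclear gene in sham at 28501, 32377 and 35637 FPKM and stood at 2396, 12502 and 16457 at day 3 (-2.02 ± 0.62). Gpx3, the plasma glutathione peroxidase made by the proximal tubule, was at 24354, 25778 and 4537 against 1992, 1076 and 4165 FPKM (-2.77 ± 0.79). Sham 3 was low for Gpx3 and close to day 3 library 3. The call on Kap was lost without sham 2 or sham 3 (adjusted p up to 0.0539), and that on Gpx3 without sham 2 or day 3 library 2 (adjusted p up to 0.0536).

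Klk1, the tissue kallikrein of the distal nephron, went from 3537, 3005 and 3112 to 479, 675 and 236 FPKM (-2.92 ± 0.33). On the gain side Spp1, which encodes osteopontin, went from 676, 300.47 and 320 to 7699, 11192 and 6822 FPKM. Mt2, a metal-binding metallothionein, went from 71.5, 24.5 and 16.02 to 1337, 1137 and 776 FPKM (5.07 ± 0.52), and S100a11, a calcium-binding protein, from 567, 400.01 and 276 to 1600, 1424 and 1259 FPKM (1.84 ± 0.28). The gain in Spp1 alone was 8139 FPKM and the mean of Kap dropped by 21720 FPKM. Other large shifts included a fall of the pseudogene Gm28437, from 15733, 14307 and 13235 to 9351, 10930 and 10019 FPKM (-0.51 ± 0.14). Its call was lost under quantile normalization and without the expression filter. Very short microRNA features, whose FPKM is unstable, shifted as well: Gm23935 was at 304, 954 and 8938 FPKM in the 3 day 3 libraries.

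Among regulators, falls outnumbered rises in the transcription factors that keep tubule identity, and rises outnumbered falls in the KLF and SOX factors. Of 36 tubule identity factors tested, 15 were lower and 4 higher, with a median of -0.50 (21, 2 and -0.74 after scaling). Hnf4a, the nuclear receptor that drives proximal tubule genes, was at 131, 186 and 195 FPKM in sham, against 47.1, 17.1 and 20.1 at day 3 (-2.68 ± 0.33, adjusted p = 0.000186). Emx1, a homeobox factor, was at 14.7, 15.8 and 12.95 against 0.99, 0.63 and 0.73 FPKM (-3.12 ± 0.13). Elf3, an epithelial ETS factor, moved the other way, from 18.6, 12.4 and 4.71 to 43.4, 37.0 and 29.9 FPKM (1.71 ± 0.39). The groups did not overlap in these 3 genes. The 4 rises of this group became 2 without sham 2, sham 3 or day 3 library 3, and 1 without day 3 library 2.

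Of 20 KLF and SOX factors 13 were higher (65%, against 39.3% of all genes) and 2 lower, with a median of 1.02 (0.74 after scaling). Klf6, an early injury factor, was at 5.28, 3.80 and 4.78 FPKM in sham, against 79.4, 82.6 and 84.9 at day 3 (3.90 ± 0.20). Sox4, a factor of epithelial progenitors, was at 2.69, 1.48 and 1.48 against 26.8, 14.7 and 16.98 FPKM (2.81 ± 0.26). Klf15, a factor of amino acid and lipid metabolism, went down from 16.7, 29.4 and 29.8 to 5.92, 3.65 and 2.34 FPKM (-2.42 ± 0.29). Nuclear receptors had 6 of 32 higher and 11 lower (median -0.29, and 5, 15 and -0.52 after scaling). Nr4a1, an immediate early receptor, rose by 2.59 ± 0.28 and Esrrb fell by 2.11 ± 0.32 on the log2 scale.

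Clock genes moved in both directions, 11 of 21 higher (52.4%, against 39.3% of all genes) and 5 lower (23.8%, against 20.6%). The counts were the same after scaling. Per1, a repressor of the clock, was at 4.33, 5.16 and 4.29 FPKM in sham, against 15.9, 26.3 and 20.8 at day 3 (1.95 ± 0.18). Hlf, an output factor of the clock, was at 5.12, 8.22 and 6.80 against 0.80, 0.49 and 0.77 FPKM (-2.18 ± 0.17), and Npas2, which pairs with Bmal1, fell by 1.59 ± 0.17. The hour at which kidneys were taken is not given in the labels, so time of day and injury cannot be told apart for these genes.

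Many genes induced by growth factor and cytokine signalling were higher, including those that feed back to end it. Among 21 feedback genes of the ERK kinase pathway, 16 were higher (76.2%) and 1 lower (median 1.43, and 1.13 after scaling). Dusp5, a phosphatase that inactivates ERK in the nucleus, was at 0.91, 0.84 and 0.55 FPKM in sham, against 25.4, 32.8 and 33.7 at day 3 (4.16 ± 0.14, adjusted p = 1.21e-06). Spred3, a membrane inhibitor of the pathway, was at 0.55, 0.23 and 0.18 against 8.74, 9.66 and 8.28 FPKM (2.91 ± 0.14). The 1 fall was Dusp9, at -0.76 ± 0.17. Dusp5 and Spred3 were under 1 FPKM in every sham and day 7 library. They passed the expression filter through day 3 only, which fixes their direction, and they count among the 16. The same holds below for Areg, Lif, Inhbb, Rnd1, Itgb3, Mthfd1l, Cyp3a13, Cidec, Sphk1, Kcne4, Ptgs2 and Trim15 in their lists.

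The ligands of the EGF receptor parted. Hbegf, made as a membrane-bound precursor, was at 2.60, 2.58 and 3.29 FPKM in sham, against 15.8, 25.5 and 24.7 at day 3 (2.56 ± 0.26). Areg was at 0, 0.40 and 0 against 4.75, 3.65 and 3.00 FPKM (2.09 ± 0.18). Egf, made by the distal nephron, went from 45.3, 63.7 and 73.4 to 1.40, 8.24 and 5.70 FPKM (-3.52 ± 0.45). The receptor partner Erbb2 fell by 0.63 ± 0.13. Of these 10 ligands and receptors 6 were higher and 2 lower, and 4 and 2 after scaling.

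In the IL-6 family and its STAT3 pathway 10 of 20 were higher (50%, against 39.3% of all genes) and 3 lower (15%, against 20.6%). Lif, a cytokine of that family, was at 0.11, 0.12 and 0.08 FPKM in sham, against 19.7, 16.02 and 21.2 at day 3 (4.17 ± 0.21). Socs3, which ends STAT3 signalling, was at 1.09, 0.95 and 1.41 against 20.9, 29.7 and 27.1 FPKM (3.63 ± 0.38). The receptor chain Il11ra1 fell by 1.08 ± 0.12. In both rises the groups were separated by more than 10 times.

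Members of the TGF-beta and BMP family had 22 of 33 (66.7%) higher and 1 lower, with 17 and 4 after scaling (medians 0.83 and 0.59). The 1 fall, that of Id4 (-0.79 ± 0.25), lost its call without any one of the 3 day 3 libraries. Gdf15, a stress hormone that acts on the brain stem, was at 4.56, 2.62 and 3.05 FPKM in sham, against 94.5, 49.7 and 42.0 at day 3 (3.77 ± 0.37). Inhbb, the activin B subunit, was at 0.81, 0.22 and 0.23 against 5.26, 12.96 and 12 FPKM (2.90 ± 0.32). Targets of YAP and TEAD, which respond to cell stretch and loss of contact, had 15 of 25 higher and none lower, with 12 or 13 higher under the scalings. Ccn1 was at 17.8, 16.5 and 20.6 against 128, 90.7 and 124 FPKM (2.57 ± 0.29).

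Counts for Wnt and Notch genes turned with the scaling. Wnt signalling had 6 of 25 higher and 2 lower with a median of 0.14, which turned to -0.11 with 3 higher and 6 lower after scaling. Its largest change was a fall of the secreted inhibitor Sfrp1, from 11.8, 17.1 and 17.9 to 1.48, 0.85 and 1.63 FPKM (-2.83 ± 0.19). Notch signalling had 9 of 22 higher and 5 lower, close to the shares of all genes, and 4 and 8 after scaling. Adam10, the protease that opens Notch for cleavage, rose by 2.05 ± 0.29 and Rfng, a glycosyltransferase of the receptor, fell by 1.5 ± 0.13.

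Most genes of each filament system of the cytoskeleton were higher. Of 53 actin cytoskeleton genes 37 were higher (69.8%) and 2 lower, with a median of 0.95 (28, 6 and 0.63 after scaling). Rnd1, a small GTPase-like protein that loosens stress fibres, was at 0.31, 0.59 and 0.37 FPKM in sham, against 23.1, 12.3 and 12.1 at day 3 (3.51 ± 0.24). Its relative Rnd3 was at 1.70, 1.32 and 1.34 against 12.6, 18.3 and 17.7 FPKM (2.79 ± 0.15). The nonmuscle myosin Myh14 fell by 1.23 ± 0.14.

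Of 12 tubulins 9 were higher and none lower (median 1.24, and 0.92 after scaling). Tubb6 was at 2.88, 4.95 and 2.85 FPKM in sham, against 37.6, 60.8 and 57.2 at day 3 (3.54 ± 0.26), and Tuba1c at 31.4, 42.8 and 32.3 against 133, 158 and 138 (1.99 ± 0.15). Intermediate filaments had 10 of 14 higher and none lower. After Krt20 the largest rise was that of Krt18, a keratin of simple epithelia, from 44.4, 15.3 and 13 to 207, 212 and 261 FPKM (3.38 ± 0.45). Summed over the list, intermediate filaments took 121 to 203 FPKM in sham and 1321 to 1402 at day 3.

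Most brush border genes were lower, while junction genes moved in both directions. Of 27 brush border genes 17 were lower (63%, against 20.6% of all genes) and 2 higher, with a median of -1.14 (20, 1 and -1.44 after scaling). The 2 rises were 1 without sham 1, sham 2 or day 3 library 1 or 2. Ggt1, the gamma-glutamyltransferase of the apical membrane, was at 302, 374 and 373 FPKM in sham, against 23.8, 46.4 and 55.6 at day 3 (-3.10 ± 0.27). Ezr, which encodes the linker protein ezrin, went up from 106, 127 and 111 to 256, 203 and 210 FPKM (0.95 ± 0.13). Primary cilium genes had 15 of 35 lower and 7 higher, and 19 and 3 after scaling. Ift122, a part of the transport machinery in the cilium, was at 3.86, 4.84 and 5.15 against 0.86, 1.09 and 0.95 FPKM (-1.51 ± 0.12). The cilium falls were 9 without sham 1, and the rises 4 without sham 2, sham 3 or day 3 library 2.

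Tight junction genes had 16 of 30 higher and 8 lower, the lower count being 5 without sham 2 or day 3 library 2 or 3. Beside Cldn4, Cldn1 rose from 4.81, 3.26 and 2.49 to 21.2, 13.9 and 20.0 FPKM (2.11 ± 0.29). Cldn10, a claudin of the proximal tubule and thick limb that passes ions, fell from 68.1, 70.3 and 77.1 to 6.47, 14.5 and 7.60 FPKM (-2.86 ± 0.24), and Cldn16, the magnesium pore of the thick limb, by 1.36 ± 0.23. Adherens junction and desmosome genes had 16 of 24 higher and 2 lower (13 and 3 after scaling). Perp, a desmosome protein and p53 target, went from 30.7, 31.5 and 28.2 to 184, 152 and 151 FPKM (2.39 ± 0.11), while Cdh16, the kidney cadherin, fell by 1.21 ± 0.14. Integrins and laminins had 12 of 24 higher and 3 lower, and Itgb3, a receptor subunit for matrix proteins, rose by 2.46 ± 0.24.

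With FPKM as deposited, most genes that make and handle RNA were higher. Of 55 ribosome biogenesis genes 44 were higher (80%) and none lower, with a median of 0.81, and 36 higher with 2 lower after scaling (median 0.54). Utp18, of the small subunit processome, was at 2.29, 2.74 and 2.37 FPKM in sham, against 9.36, 12.8 and 14.02 at day 3 (1.90 ± 0.15). Ddx21, a nucleolar helicase, was at 6.67, 6.97 and 6.42 against 21.3, 30.7 and 31.4 FPKM (1.89 ± 0.17). Splicing factors of the hnRNP and SR families had 31 of 42 higher and 1 lower (2 without sham 1). After scaling 27 were higher and 2 lower, and 22 and 1 once the trend on GC content and length was removed. Their median of 0.82 became 0.53 and 0.34. The mRNA decay factors had 27 of 47 higher and none lower (20 and 3 after scaling). Btg2, a recruiter of deadenylases and a p53 target, rose furthest among the decay factors, from 8.20, 5.92 and 6.87 to 208, 136 and 126 FPKM (4.28 ± 0.25). Long noncoding and snoRNA host RNAs had 17 of 23 higher and 1 lower, Snhg18 (-1.16 ± 0.11).

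Translation factors followed with smaller changes. Of 54 initiation factor genes 35 were higher and 5 lower (median 0.57, and 0.27 after scaling, with 24 higher and 6 lower). Eif5, which sets the start codon, was at 4.22, 4.91 and 6.70 FPKM in sham, against 45.1, 51.1 and 50.4 at day 3 (3.01 ± 0.27). The repressors of cap binding went both ways, Eif4ebp1 up by 2.11 ± 0.27 and Eif4ebp2 by -0.74 ± 0.12. Of 23 cytosolic tRNA synthetases 13 were higher and none lower, and 8 and 2 after scaling, when their median was 0.14. Rars, of arginine, rose from 15.1, 14.5 and 12.95 to 29.4, 46.1 and 46.2 FPKM (1.42 ± 0.18).

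Protein turnover and traffic gave mixed counts. Ubiquitin genes and E2 enzymes had 17 of 35 higher and 2 lower, a count of 8 and 5 after scaling, and the lower count was 4 without day 3 library 1. Among the falls, Ubb, a polyubiquitin gene, was at 866, 925 and 923 FPKM in sham, against 522, 529 and 498 at day 3 (-0.81 ± 0.10). Rps27a, the fusion gene that encodes ubiquitin with a ribosomal protein, rose by 1.38 ± 0.14. Vesicle coats had 13 of 39 higher and 8 lower with a median of 0.13, close to the shares of all genes, and 8 higher and 13 lower with a median of -0.19 after scaling. The vacuolar proton pump had 7 of 20 lower and 2 higher (11 and 1 after scaling), led by the intercalated cell subunits Atp6v1b1 (-2.83 ± 0.25) and Atp6v1c2 (-2.39 ± 0.25). Lysosomal hydrolases had 19 of 50 lower and 11 higher (24 and 7 after scaling), with Glb1 at -1.93 ± 0.27 and Gla at 1.95 ± 0.13.

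Breakdown of amino acids had the highest share of falls among the lists outside the cell type checks, 47 of 62 lower (75.8%) and 3 higher, with a median of -1.50 (-1.80 after scaling). Dao, the D-amino acid oxidase of proximal tubule peroxisomes, was at 90.2, 153 and 145 FPKM in sham, against 5.53, 9.05 and 11.3 at day 3 (-3.77 ± 0.26). Ass1, which with its partner lyase makes the arginine that the kidney exports, was at 582, 1249 and 1103 against 72.3, 67.0 and 65.6 FPKM (-3.75 ± 0.25). Arg2, the mitochondrial arginase that consumes arginine, went up from 20.6, 9.30 and 3.61 to 153, 79.2 and 49.8 FPKM (3.09 ± 0.59). The groups did not overlap in any of the 3.

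Serine, one-carbon and methionine genes had 14 of 29 lower and 3 higher. Chdh, which oxidises choline on the way to betaine, fell from 52.8, 47.1 and 50.2 to 11.2, 2.94 and 5.69 FPKM (-2.90 ± 0.33), and Bhmt2 from 51.0, 52.3 and 50.5 to 3.31, 7.62 and 9.96 (-2.82 ± 0.30). Mthfd1l, of the mitochondrial folate pathway, rose by 1.43 ± 0.14. In polyamine metabolism 8 of 17 were higher and 2 lower, and 7 and 4 after scaling. Smox, the spermine oxidase, was at 1.20, 1.53 and 0.96 against 11.5, 12.6 and 12.8 FPKM (2.58 ± 0.12), and Amd1, which supplies the propylamine group of spermidine and spermine, rose by 1.85 ± 0.14. The polyamine falls were 1 without sham 2 or day 3 library 1 or 3. The polyamine median was 0.28 and turned to -0.03 after scaling.

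Enzymes that modify drugs and other foreign compounds moved in both directions. Cytochrome P450 genes of families 1 to 4 had 12 of 27 lower and 7 higher, and 13 and 6 after scaling. Cyp2e1 was at 611, 656 and 612 FPKM in sham, against 17.8, 93.6 and 96.2 at day 3 (-3.49 ± 0.59), and Cyp3a13 rose from 0.27, 0.11 and 0.22 to 4.81, 8.22 and 10.5 (2.83 ± 0.22). Conjugating enzymes had 14 of 36 lower and 5 higher, the rises being 3 without sham 2 or sham 3 and also after scaling, with 18 lower. Gsta1, a glutathione transferase, rose from 17.4, 21.8 and 8.15 to 264, 103 and 70.1 FPKM (3.00 ± 0.49), with day 3 library 1 the highest.

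Lipid droplet and lipid uptake genes moved in both directions. Hilpda, which blocks the lipase of droplets, was at 1.53, 0.85 and 0.48 FPKM in sham, against 20.7, 29.9 and 34.7 at day 3 (3.92 ± 0.25). Cidec, which fuses droplets in fat cells, was at 0.50, 0.14 and 0.27 against 26.9, 9.06 and 6.12 FPKM (3.28 ± 0.44), and its relative Cideb went down from 105, 180 and 182 to 13.8, 12.3 and 16.2 (-3.34 ± 0.21). Slc27a2, the fatty acid transporter of the tubule, fell from 710, 843 and 884 to 173, 67.9 and 91.7 FPKM (-2.97 ± 0.29). Counts over the list were 15 of 49 lower and 11 higher, and 19 and 8 after scaling. Sphingolipid genes had 15 of 33 higher and 5 lower (11 and 7 after scaling), led by Sphk1, which makes sphingosine phosphate (2.36 ± 0.24), and Ugcg, which makes glucosylceramide (1.97 ± 0.10).

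Genes with the Mrpl and Mrps symbols of mitochondrial ribosomal proteins had 27 of 78 lower and 15 higher, and 45 and 9 after scaling. Their medians were -0.18 and -0.48. They were taken by symbol, which does not show that each product is part of the ribosome. Mrps36 fell from 33.3, 37.6 and 33.9 to 13.8, 10.9 and 8.99 FPKM (-1.57 ± 0.15), and Mrpl33 rose by 1.83 ± 0.16. Protein import genes had 6 of 23 each way and none at 2-fold, and 2 higher with 11 lower after scaling. Carriers of the inner membrane had 16 of 39 lower and 6 higher, and 20 and 5 after scaling. Slc25a24, which carries ATP-magnesium, went from 1.72, 1 and 0.84 to 18.4, 17.3 and 22.7 FPKM (3.24 ± 0.28), while Slc25a10, the dicarboxylate carrier, fell by 1.83 ± 0.39.

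**Figure D3:**
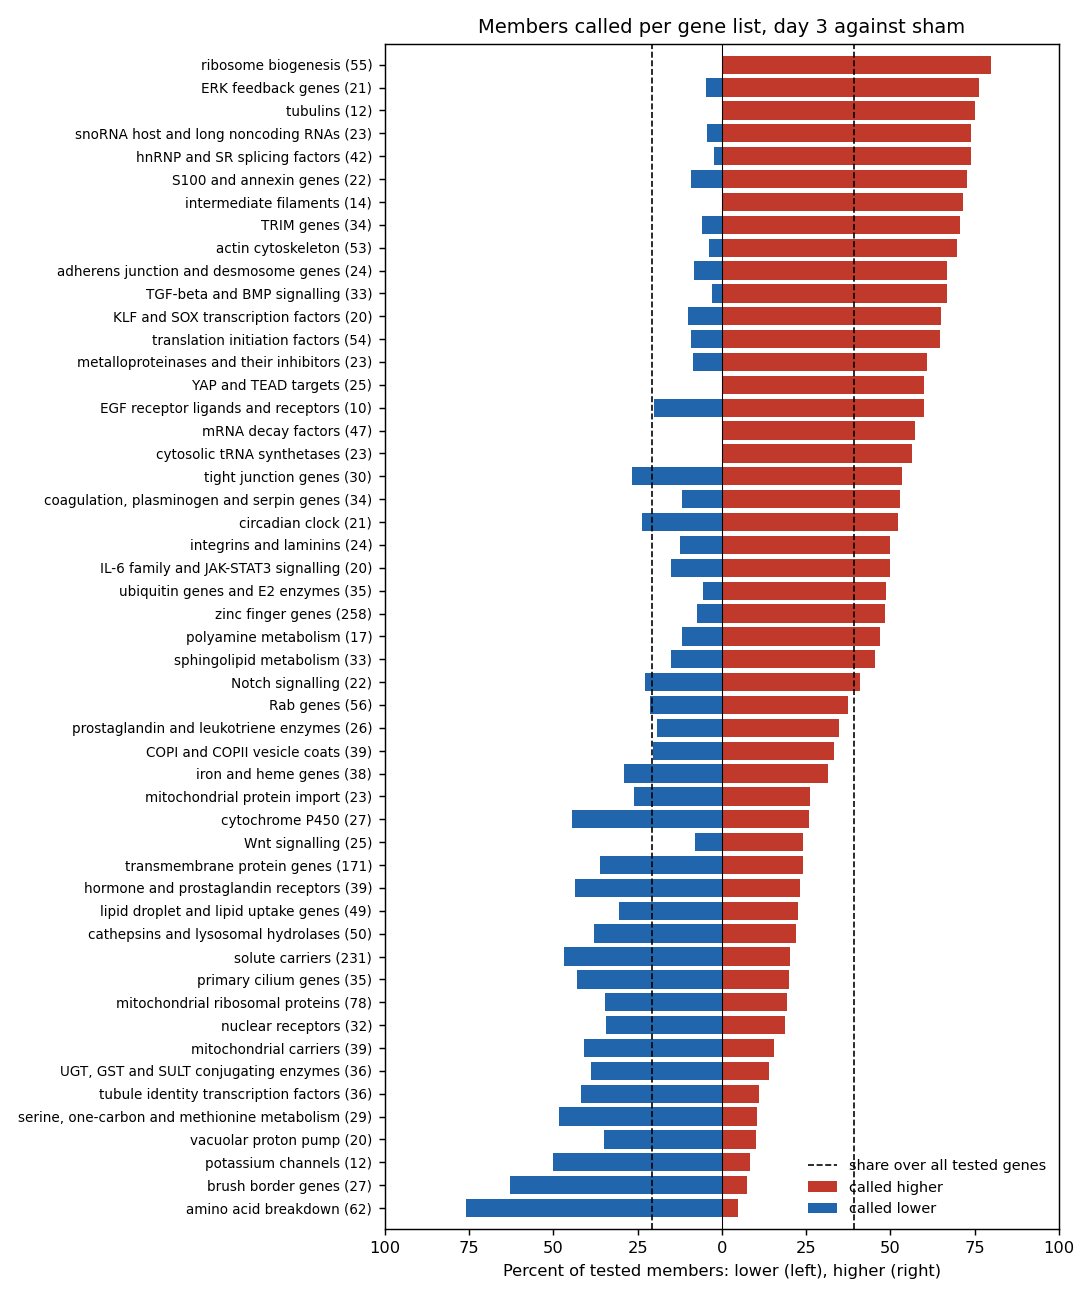
Percent of the tested members of each gene list called higher (red, right of 0) or lower (blue, left of 0) at day 3, for lists with at least 10 tested members outside the cell type checks. Numbers in brackets are tested members, and dashed lines mark the shares over all 13718 genes, 39.3% higher and 20.6% lower. Ribosome biogenesis (80% higher) is at the top and amino acid breakdown (75.8% lower) at the bottom.

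Many transport genes were lower. Of 231 solute carriers tested 108 were lower (46.8%, against 20.6% of all genes) and 47 higher, with a median of -0.51 (133, 32 and -0.78 after scaling). Slc22a2, the organic cation transporter that brings cisplatin into the cell, was at 117, 161 and 176 FPKM in sham, against 7.00, 7.96 and 9 at day 3 (-4.07 ± 0.19). Slc12a4, a potassium-chloride cotransporter of cell volume control, was at 5.03, 3.97 and 2.37 against 21.4, 22.9 and 24.7 FPKM (2.36 ± 0.21). Among 12 potassium channel genes 6 were lower and 1 higher. Kcnj10, the basolateral channel of the distal tubule, fell from 12.3, 13.1 and 11.9 to 2.68, 2.98 and 1.23 FPKM (-2.07 ± 0.20). The small subunits parted, Kcne1 at -2.69 ± 0.16 and Kcne4 at 2.19 ± 0.16. Without sham 3 or day 3 library 1 the potassium channel rises were 3 and 2.

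Receptors for hormones had 17 of 39 lower and 9 higher (20 and 6 after scaling), and the lower count was 11 without day 3 library 2. Pth1r, the receptor of parathyroid hormone, was at 146, 177 and 182 FPKM in sham, against 20.0, 9.42 and 10.7 at day 3 (-3.62 ± 0.25). Fgfr4 fell from 9.97, 15.4 and 12.7 to 2.58, 1.81 and 1.54 FPKM (-2.20 ± 0.18). Tnfrsf12a, the receptor of the cytokine TWEAK, went up from 6.94, 4.08 and 2.93 to 74.6, 63.1 and 86.7 FPKM (3.80 ± 0.30). Of 26 prostaglandin and leukotriene enzymes 9 were higher and 5 lower, close to the shares of all genes, and 9 and 8 after scaling. Ptgs2, the inducible cyclooxygenase, was at 0.08, 0.01 and 0.01 against 5.18, 7.04 and 8.43 FPKM (2.91 ± 0.15), and Ephx2, the soluble epoxide hydrolase, fell by 1.92 ± 0.25.

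Genes of coagulation, plasmin and serpins had 18 of 34 higher and 4 lower, with a median of 1.57 (1.27 after scaling). The rises included Plaur, and the falls included Serpinf2, the inhibitor of plasmin, from 63.4, 141 and 155 to 5.42, 9.85 and 10.8 FPKM (-3.59 ± 0.36). Metalloproteinases and their inhibitors had 14 of 23 higher and 2 lower (13 and 4 after scaling). Timp1 was at 0.31, 1.32 and 0.73 FPKM in sham, against 22.3, 53.0 and 96.1 at day 3 (4.83 ± 0.67), Adamts1 rose by 3.09 ± 0.30 and Timp3 fell by 0.84 ± 0.22. In the S100 and annexin families 16 of 22 were higher and 2 lower (13 and 4 after scaling). S100a6 went from 13.97, 9.40 and 4.92 to 107, 144 and 129 FPKM (3.70 ± 0.40), while S100g, the calcium carrier of the distal tubule, fell from 1411, 971 and 995 to 346, 89.4 and 78.2 (-3.03 ± 0.50).

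Iron and heme genes had 12 of 38 higher and 11 lower, with a median of 0.04, and 8 and 14 with a median of -0.26 after scaling. Steap1, a member of the Steap family, went from 2.52, 2.48 and 2.96 to 42.8, 21.96 and 27.5 FPKM (3.07 ± 0.25). Aco1, the cytosolic aconitase that also binds iron response elements, fell by 1.29 ± 0.17. Among the large symbol families, zinc finger genes had 125 of 258 higher and 19 lower, which became 100 and 37 after scaling and 70 and 51 once the trend on GC content and length was removed. Zinc finger falls were 12 without sham 1. TRIM genes had 24 of 34 higher and 2 lower (1 without sham 2 or day 3 library 2, and 18 and 5 after scaling), led by Trim15, from 0.09, 0.03 and 0.13 to 4.59, 9.60 and 6.56 FPKM (2.82 ± 0.20). Rab genes had 21 of 56 higher and 12 lower, close to the shares of all genes, and 14 and 17 after scaling. Tmem genes had 41 of 171 higher and 62 lower, and 28 and 79 after scaling.

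Several genes that laboratories use to normalise PCR differed between the groups. Of 24 common reference genes 12 were higher (50%, against 39.3% of all genes) and 4 lower (16.7%, against 20.6%), and 7 and 5 after scaling. Hprt, a purine salvage enzyme, was at 40.9, 41.5 and 40.8 FPKM in sham, against 170.3, 166 and 160 at day 3 (1.98 ± 0.09, and 1.66 after median-of-ratios scaling). Polr2a, the large subunit of RNA polymerase II, was at 16.8, 20.3 and 16.99 against 38.6, 78.4 and 73.2 FPKM (1.70 ± 0.24). Sdha, of respiratory complex II, was at 116, 159 and 176 against 75.9, 83.1 and 90.2 (-0.83 ± 0.16). In these 3 genes the groups did not overlap.

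Actb and Gapdh, the most used of them, sat near the threshold. Actb was at 174.6, 204 and 144 FPKM in sham, against 227, 235 and 271 at day 3 (0.50 ± 0.15, adjusted p = 0.0207), and lost the call without sham 3 or day 3 library 3 (adjusted p up to 0.0698) and after median-of-ratios scaling. Gapdh was at 57.4, 84.0 and 51.1 against 41.7, 49.6 and 37.6 FPKM (-0.54 ± 0.20, adjusted p = 0.0392), and lost it without sham 2 or day 3 library 1 or 3 (adjusted p up to 0.123). The 4 falls of the reference genes were 2 without those same 3 libraries in turn. Eef2, an elongation factor, was at 397, 485 and 483 FPKM in sham, against 436, 428 and 474 at day 3, a log2 fold change of -0.02 with a 95% interval from -0.30 to 0.25.

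**Figure D4:**
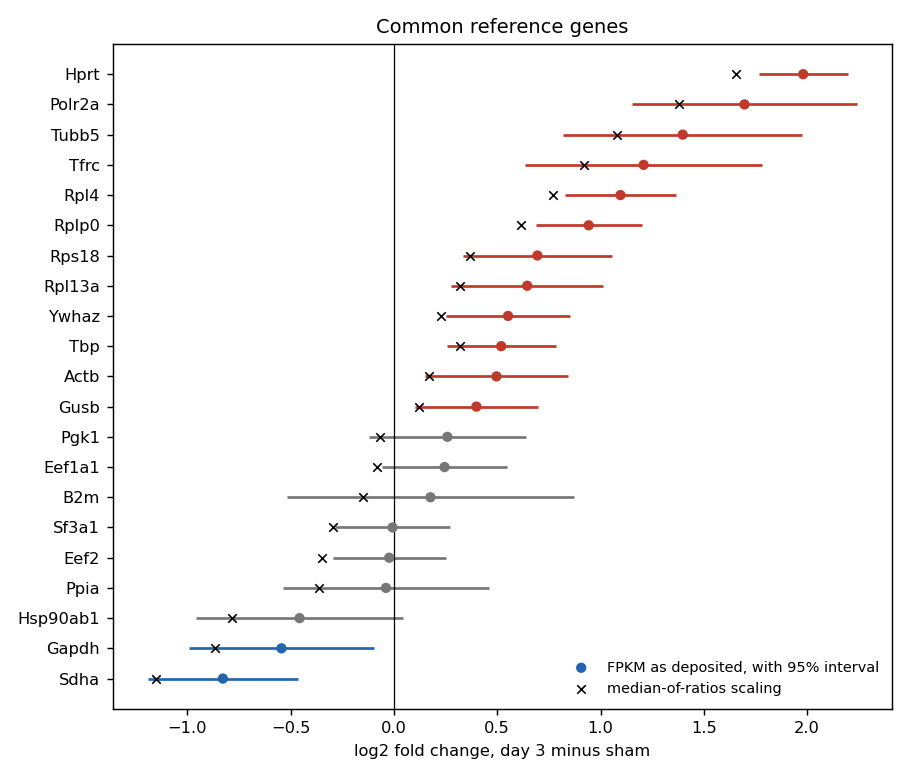
Log2 fold change of the reported genes among 24 common reference genes at day 3 against sham, with 95% intervals from limma on FPKM as deposited (points and lines, red called higher, blue called lower, grey not called) and the estimate after median-of-ratios scaling (crosses). Hprt lies at 1.98 and Sdha at -0.83, and the crosses lie to the left of the points.

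Of all tested genes 1596 (11.6%) had a 95% interval that lay within 0.5 of 0 on the log2 scale, and 62 of them were at 50 FPKM or more in sham. Vamp8, a protein of vesicle fusion, was at 58.1, 53.6 and 51.7 FPKM in sham, against 50.9, 58.8 and 55.7 at day 3. Hdgf was at 83.2, 95.2 and 96.5 against 92.6, 90.7 and 98.0, and Laptm4a, a lysosomal membrane protein, at 155.5, 144 and 136 against 150.2, 136 and 141. These genes keep their level relative to all FPKM, and after median-of-ratios scaling the 3 were at -0.31, -0.29 and -0.35.

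Some genes went from near absence to clear expression, and the reverse was rare. Under 0.1 FPKM in every sham library and at 5 or more in every day 3 library were 17 genes, 15 of them protein-coding, and no gene did the opposite. With bounds of 1 and 10 FPKM the numbers were 25 and 3. Ddias, a gene that answers DNA damage, was at 0.06, 0.08 and 0.07 FPKM in sham, against 9.28, 8.47 and 8.97 at day 3. Calcb, which encodes the neuropeptide CGRP beta, was listed at 0 in sham, against 9.23, 7.09 and 8.19 at day 3. Atg9b, an autophagy gene, was at 0.09, 0.08 and 0.03 against 8.34, 12.3 and 11.1 FPKM, and Zfp365 at 0, 0.01 and 0.05 against 5.72, 5 and 5.49. The neutrophil chemokine gene Cxcl2 was at 0, 0.04 and 0.04 against 8.44, 9.57 and 7.11.

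These genes were chosen for that pattern, and many of them sit in 2 neighbourhoods. On chromosome 3, from S100a1 to S100a11 (90511034 to 93526287, GRCm38), lie 119 annotated genes, 74 of them protein-coding, among them the S100, late cornified envelope and small proline-rich families. Of 27 tested there, 20 were higher and 1, S100a1, lower (-1.35 ± 0.17). Sprr2f, Lce1d and Lce3c were each listed at 0 in every sham library and reached 262, 5.17 and 3.94 FPKM in day 3 library 1. A gene at 0 in sham is tested only when it rose, so the count of rises is no measure of how common they are. On chromosome 14, between Gm3486 and BC061237 (41484232 to 44506345), 16 of 162 annotated genes were tested and 16 were higher. Both bounding genes were themselves chosen for the pattern. All 16 were under 1 FPKM in every sham library and needed day 3 libraries to pass the expression filter. Their direction was thus largely fixed, and the count is no evidence of a shared rise. 1700001F09Rik was listed at 0 in sham and at 13.7, 18.6 and 29.9 FPKM at day 3, and Gm10375 at 0 and at 11.4, 21.1 and 20.5. They were 12 protein-coding genes, 3 pseudogenes and 1 long noncoding RNA, and 137 of the 162 were listed at 0 in sham. Several are predicted genes of one local cluster, where reads could be split among similar copies, so the number of rises there is uncertain.

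The shares of higher and lower genes differed with base composition and with sham level. Of the 3427 genes lowest in GC content (17.1% to 45.1%), 55.4% were higher and 11.8% lower, and of the 3427 highest (54.5% to 73.7%), 26.8% were higher and 27.6% lower. Genes called higher had a median GC content of 47.6%, genes called lower 52.3% and all genes 49.8%. Of the 3430 genes with the highest sham level, 25.3% were higher and 40.1% lower, and of the 3430 with the lowest, 53.9% and 7.23%. A gene low in sham can pass the expression filter through day 3, which favours rises among those. Such a gene also has little room to fall, and the sham level enters the fold change itself. The shares by sham level therefore cannot show that direction depends on the starting level. The part of GC content in the results was not tested beyond the fit with its trend removed.

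Promoters were searched for the sites of known factors because many genes moved together. AP-1, the dimer of Fos and Jun proteins, binds TGANTCA, and HNF1, a factor of tubule and liver genes, binds a site whose core is GTTAAT. RefSeq promoters on GRCm38.p6, from 250 bases before to 50 after the start, matched 9563 of the tested genes, and both strands were searched for 14 motifs. The AP-1 site was in 4.89% of all these promoters, in 11.9% of the 310 of genes that rose at least 4-fold and in 7.29% of the 288 of genes that fell at least 4-fold. The HNF1 core was in 4.54%, 3.55% and 18.1%. The full HNF1 site, of which the core is a part, was in 3 of all these promoters, in 0 of the rises and in 1 of the falls. Both the rises and the falls held more TATA boxes (TATAAA) than all promoters, 15.5% and 17.01% against 7.43%, and fewer ETS sites (CCGGAAG), 12.3% and 4.86% against 18.5%. Median GC content was 60.7% over all these promoters, 60.0% for the rises and 53.5% for the falls. The part of base composition in these shares was not tested.

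Given here are 2 promoters of genes with the largest rises that hold the AP-1 site, then 2 of genes with the largest falls that hold the HNF1 core, so that the letters can be seen in place. They are chr5:134946885-134947184 (minus strand) for Cldn4, chr7:24462233-24462532 (plus) for Plaur, chr4:119658896-119659195 (minus) for Guca2b and chr6:85820923-85821222 (minus) for Nat8f5. Capitals mark the AP-1 site in the first pair and the HNF1 core in the second. A match is a run of letters and not evidence of binding.
Cldn4: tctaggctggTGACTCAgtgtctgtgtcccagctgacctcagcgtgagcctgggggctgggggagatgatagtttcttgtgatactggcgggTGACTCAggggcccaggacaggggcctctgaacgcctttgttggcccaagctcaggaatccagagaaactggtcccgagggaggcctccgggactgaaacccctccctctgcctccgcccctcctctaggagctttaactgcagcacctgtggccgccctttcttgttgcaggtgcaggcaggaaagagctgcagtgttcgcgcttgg
Plaur: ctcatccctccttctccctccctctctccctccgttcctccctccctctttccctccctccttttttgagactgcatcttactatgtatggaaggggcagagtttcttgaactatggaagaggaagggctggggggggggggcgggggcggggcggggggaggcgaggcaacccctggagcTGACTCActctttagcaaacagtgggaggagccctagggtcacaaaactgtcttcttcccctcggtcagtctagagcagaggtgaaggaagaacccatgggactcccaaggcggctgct
Guca2b: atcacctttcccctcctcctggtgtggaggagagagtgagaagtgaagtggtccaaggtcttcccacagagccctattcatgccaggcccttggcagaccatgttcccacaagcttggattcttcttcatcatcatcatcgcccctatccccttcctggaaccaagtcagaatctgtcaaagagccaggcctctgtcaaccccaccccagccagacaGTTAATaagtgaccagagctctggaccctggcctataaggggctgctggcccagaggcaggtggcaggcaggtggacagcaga
Nat8f5: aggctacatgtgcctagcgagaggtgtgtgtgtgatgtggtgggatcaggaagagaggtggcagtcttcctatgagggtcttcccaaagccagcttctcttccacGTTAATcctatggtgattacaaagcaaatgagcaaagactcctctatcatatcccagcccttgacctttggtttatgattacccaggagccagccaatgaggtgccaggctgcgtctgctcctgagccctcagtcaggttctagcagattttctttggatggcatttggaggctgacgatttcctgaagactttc

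Cldn4 went from 9.92 ± 6.79 to 228 ± 17.6 FPKM (SD, n = 3) and its promoter holds 2 AP-1 sites, while that of Plaur holds 1. Guca2b went from 625 ± 100.1 to 39.4 ± 16.9 FPKM and Nat8f5 from 42.3 ± 11.9 to 1.40 ± 0.22, and each promoter holds 1 HNF1 core. Of the other genes named among the largest falls that matched a promoter, Tmem52b, Ugt2b37, Inmt and Keg1 hold none, and Ugt2b37 holds 1 AP-1 site. Among the rises, Akr1b8 and Spp1 hold 1 HNF1 core each. Of the other genes named among the largest rises that matched a promoter, Sprr1a and Cd68 hold 2 AP-1 sites each and Hmga1b 1, while Akr1b8 and Bco1 hold no AP-1 site in this window.

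**Figure D5:**
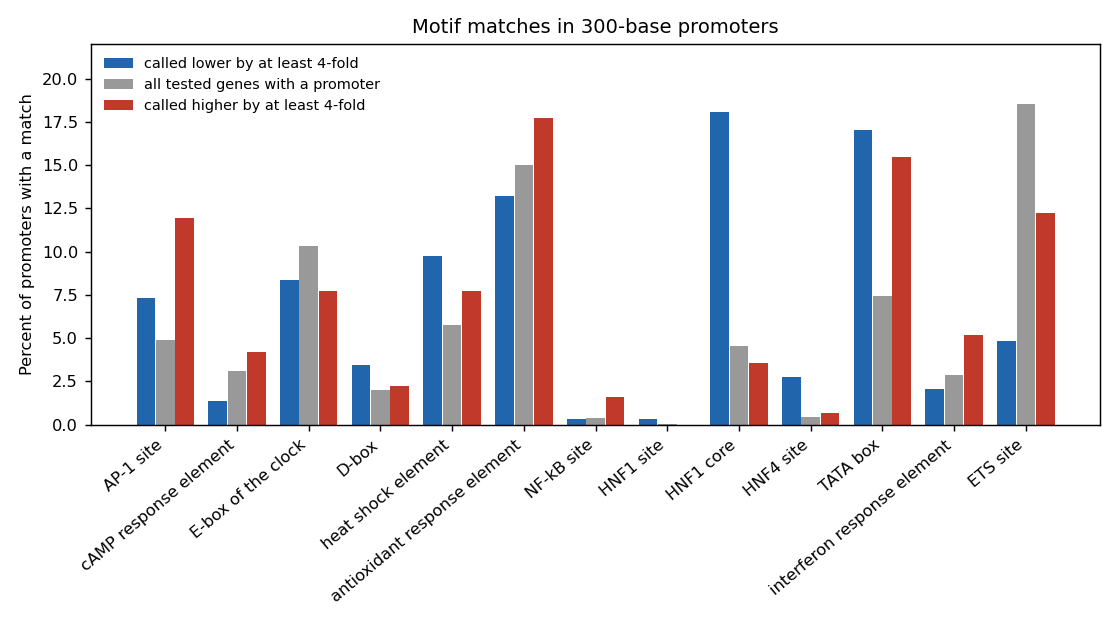
Percent of 300-base promoters with at least 1 match to each motif on either strand, for tested genes called lower by at least 4-fold (blue, n = 288), all tested genes with a promoter (grey, n = 9563) and genes called higher by at least 4-fold (red, n = 310). The metal response element, which matches 60.1% of all promoters, is left out. The AP-1 site is at 11.9% in the red group and the HNF1 core at 18.1% in the blue group.

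Markers of other cell types moved with day 3 as well. Of 14 neutrophil markers 5 were tested and 5 were higher, and the list summed to 2.97 to 14.9 FPKM in sham and 33.5 to 122 at day 3. Mmp8 and Il1r2 were under 1 FPKM in every sham library and reached the expression filter only through day 3, which fixes their direction. S100a8, a calcium-binding protein of neutrophils, was at 2.82, 0.17 and 2.17 in sham, against 7.51, 33.9 and 15.2 at day 3 (2.80 ± 0.65). Mpo, an enzyme of neutrophil granules, was at 0 in all 6 libraries. These markers belong beside the rises of cytokine genes and of S100 genes, and their part in those was not tested. Of 13 macrophage and monocyte markers tested 2 were higher, Cd68 and Cd14, and 5 lower, among them the receptor Csf1r, from 11.1, 12.5 and 10.7 to 1.69, 4.85 and 4.05 FPKM (-1.53 ± 0.26). The count of 5 was 1 to 2 without sham 2 or 3 or day 3 library 1 or 2. Cd68 thus rose while Csf1r fell.

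Of 20 markers of T, B and NK cells 1 passed the filter, Trac, which fell from 3.93, 3.02 and 1.54 to 0.20, 0.27 and 0.25 FPKM (-1.57 ± 0.30). Red cell genes were lower in 5 of 5 tested. Hba-a2, an alpha globin gene with a near-identical copy, was at 29.4, 28.8 and 36.3 FPKM in sham, against 2.79, 1.13 and 1.18 at day 3, and Slc4a1, the anion exchanger of red cells and of intercalated cells, at 13.1, 11.1 and 7.05 against 0.04, 0.08 and 0.12 (-3.36 ± 0.19). The list summed to 111 to 137 FPKM in sham and 4.46 to 10.8 at day 3. Endothelial and pericyte markers had 3 of 14 higher and 4 lower with a median of 0.04, which turned to -0.25 after scaling. Plvap, of fenestrated capillaries, was at 82.6, 86.0 and 57.4 against 22.4, 38.1 and 48.7 FPKM (-1.08 ± 0.30), and Mcam rose by 1.68 ± 0.25. The endothelial falls were 2 without sham 1, sham 2 or day 3 library 2, and the rises 5 without day 3 library 1. Markers of fat, urothelium, adrenal cortex and muscle had 4, 7, 2 and 1 tested members, of which 2, 1, 0 and 0 were higher and 1, 0, 0 and 0 lower, though without day 3 library 1 the adrenal count of rises was 2. The fat marker list summed to 334 to 1474 FPKM in sham and 62.5 to 189.8 at day 3. Most of that was Pck1, which the proximal tubule also makes, at 1456, 328 and 646 FPKM in sham, against 126, 28.2 and 28.3 at day 3 (-3.82 ± 0.69).

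The day 3 animals also differed among themselves. Ren1, which encodes renin, was at 14.9, 77.7 and 189 FPKM at day 3 and 57.3, 48.4 and 39.8 in sham, and was not called (0.34 ± 0.78). Irf1, an interferon-induced factor, was at 48.3, 3.49 and 9.25 at day 3 against 4.43, 3.96 and 6.53. Emp1, an epithelial membrane protein, was at 1.94, 37.5 and 43.0 against 4.58, 3.10 and 2.72. In each of these genes 1 or more day 3 libraries lay within or below the sham range, and these 3 were picked for their spread after the values were seen.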

How the data were processed

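The authors deposited FPKM per gene for 9 libraries, to 2 decimals, per the file headers and values. HISAT, StringTie, FastQC 0.10.1 and GRCm38 are named by the submitters' processing notes, which assign none of them a step. Not given in the sources used here were the annotation release and whether counting used strand. Reads of overlapping or antisense genes may therefore be mixed. Gene IDs were matched to GENCODE M21 (55144 of 55385).

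Genes at 1 FPKM or more in 3 of 9 libraries were tested on log2(FPKM + 1) with limma 3.58.1 (R 4.3.3): group means over 9 libraries, eBayes with a trend, Benjamini-Hochberg adjustment, two-sided, threshold 0.05. Errors are SE from limma unless named SD. Simulated data for day 3 against sham held 13718 genes with normal noise, 200 of them changed, and no shift of scale. There 66% of 2-fold and 91% of 4-fold changes were recovered with 6 false calls. In the real data 59.9% of genes were called, so these rates need not carry over. The labels call the libraries biological repeats without naming animals, so p-values measure the spread between these libraries.

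The comparison, the 63 gene lists and the tests were chosen with earlier results of these data known. Named genes were the 12 largest rises and falls among called genes whose groups did not overlap and of which 1 reached a mean of 5 FPKM, passing over 36 best-known genes, predicted genes, pseudogenes and receptor segments. Added to these were the 6 largest gains and losses in FPKM, with genes of mitochondrial DNA left out. Also added were up to 2 called members each way per list, reference genes and defining markers. Some genes that meet this rule are not reported here. Of 3073 listed symbols 2206 distinct genes were tested. Alternatives were a pseudocount of 0.1, other filters, 2 scalings, robust variance, 6 libraries alone, a replicate block, a spline correction for GC content and length, and each library left out.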

Additional observations from a re-analysis of the deposited data

How the results depend on the processing

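The number of genes called stayed within 1.5 times of 8214 under every alternative except a filter at 5 FPKM, which tested 7692 genes and called 5104, of which 3125 were higher and 1542 higher by at least 2-fold. Median-of-ratios scaling gave 1544 genes higher by at least 2-fold, and removal of the GC content and length trend 1528, against 2347. Leaving out each library in turn gave 7106 to 8221 called, 4718 to 5479 higher, 2388 to 2971 lower, 2224 to 2572 higher by at least 2-fold and 1163 to 1394 lower by at least 2-fold. The replicate block called 8212. Same-numbered sham and day 3 libraries deviated together with correlations of 0.088, -0.009 and 0.143. Libraries of different numbers had -0.162 to 0.060. With so few libraries these values cannot show whether the numbers pair them.

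Of 246 named genes called, 222 kept call and direction under every alternative that tested them. Among the 24 others, the calls on Ehf, Cish, Id4, Prom1, Psat1, Dohh, Trim65, C1qa, Gusb, Gm26377 and 2900097C17Rik were lost without at least 1 library. Of 126 list counts, median-of-ratios scaling moved 35 by over 1.5 times and the GC correction 26.

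Among the named genes, changes of sign were in reference genes not called at day 3, and the cause was not tested. After median-of-ratios scaling B2m was at -0.151, Pgk1 at -0.068 and Eef1a1 at -0.083. Quantile normalization gave Ppia 0.108 and Eef2 0.30 (adjusted p = 0.0498), and the GC correction B2m -0.313. Leaving out each library in turn gave B2m -0.046 to 0.439, Eef2 -0.117 to 0.025, Sf3a1 -0.099 to 0.063 and Ppia -0.272 to 0.093.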
